A study of Mus musculus with 8 samples.

Results

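The 9 cathepsin transcripts Ctsa, Ctsb, Ctsc, Ctsd, Ctsh, Ctsk, Ctsl, Ctss and Ctsz, and the transcript of cystatin C, Cst3, were followed in tumor-associated macrophages (TAMs). These genes were chosen by family and symbol, with earlier results of these data known, and are 10 of the 21051 genes listed in the deposited tables. All 10 had enough reads to be tested. On day 14 after B16 melanoma cells were injected, CD45+F4/80+ cells were sorted from the tumors, and their RNA from 4 WT mice (TAM-WT) and 4 Colec11-/- mice (TAM-KO) was sequenced with 1 library per mouse. Colec11 encodes the pattern recognition molecule collectin-11. The Colec11-/- mice lacked the gene in every cell, not in macrophages alone, and were used after at least 10 generations of back-crossing to C57BL/6. Controls were WT littermates of the same C57BL/6 background, and per the study's methods the mice were males of 8 to 10 weeks. Host and tumor therefore shared the C57BL/6 background, and the injected B16 cells of both groups did not come from the knockout mice.

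Cathepsins are proteases of the endosome and lysosome that are made as inactive precursors and become active where the compartment turns acid. Most are cysteine proteases of the papain family (Ctsb, Ctsc, Ctsh, Ctsk, Ctsl, Ctss and Ctsz), Ctsd is an aspartic protease, and Ctsa is a serine carboxypeptidase that also shields partner enzymes from breakdown. Cystatin C is a secreted inhibitor that binds cysteine cathepsins tightly. In macrophages these enzymes digest engulfed material and matrix, and Ctss trims the invariant chain from MHC class II. Ctsk is best known as the collagen-degrading enzyme of osteoclasts, cells of the macrophage lineage.

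Sequence around an annotated start of 4 of the genes is printed because Ctsa, Ctsd and Ctsk had fewer transcripts in TAM-KO, while Ctss lies next to Ctsk and did not pass the test. Each window runs from 250 bases before to 50 bases after an annotated RefSeq start on GRCm38.p6. Ctsa has 2 windows, and the one printed belongs to its second start, so it lies inside the span of the gene. Capitals mark the E-box core CACGTG, which lysosomal regulators of the TFEB family can bind, in Ctsa and Ctsd, and ACTTCCTC, the reverse complement of the PU.1 core GAGGAAGT, in Ctss. PU.1 is a regulator of the myeloid lineage.
Ctsa, chr2:164833523-164833822, plus strand: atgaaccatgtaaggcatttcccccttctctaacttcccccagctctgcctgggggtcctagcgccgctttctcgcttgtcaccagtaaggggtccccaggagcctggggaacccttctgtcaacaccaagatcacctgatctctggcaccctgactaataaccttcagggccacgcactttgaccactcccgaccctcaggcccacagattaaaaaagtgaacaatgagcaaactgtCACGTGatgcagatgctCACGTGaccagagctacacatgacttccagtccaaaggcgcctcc
Ctsd, chr7:142387778-142388077, minus strand: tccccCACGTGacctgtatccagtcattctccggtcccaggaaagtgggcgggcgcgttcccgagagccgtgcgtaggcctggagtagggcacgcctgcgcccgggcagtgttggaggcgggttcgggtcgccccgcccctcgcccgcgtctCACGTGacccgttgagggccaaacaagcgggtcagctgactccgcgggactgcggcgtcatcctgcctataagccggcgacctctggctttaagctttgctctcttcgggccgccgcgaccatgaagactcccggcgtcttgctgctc
Ctsk, chr3:95498960-95499259, plus strand: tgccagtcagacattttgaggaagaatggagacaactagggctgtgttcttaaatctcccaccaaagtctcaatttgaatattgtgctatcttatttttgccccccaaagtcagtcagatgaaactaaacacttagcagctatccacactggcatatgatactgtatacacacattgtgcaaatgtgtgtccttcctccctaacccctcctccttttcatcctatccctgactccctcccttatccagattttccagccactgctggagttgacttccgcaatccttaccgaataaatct
Ctss, chr3:95526536-95526835, plus strand: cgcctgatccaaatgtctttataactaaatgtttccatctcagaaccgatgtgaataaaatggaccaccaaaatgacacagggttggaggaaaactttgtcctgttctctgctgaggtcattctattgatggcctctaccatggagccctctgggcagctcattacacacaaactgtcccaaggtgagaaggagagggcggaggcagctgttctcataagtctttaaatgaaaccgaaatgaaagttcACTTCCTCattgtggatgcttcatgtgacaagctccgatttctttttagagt
The motifs were searched on both strands in these windows, in those of Ctsc, Ctsl, Ctsz and Cst3, and in 32841 windows of all genes. CACGTG was found in the windows of Ctsa, Ctsd and Ctsl and in 7.15% of all windows. The longer TCACGTGA, which contains that core, was found in Ctsa and Ctsd and in 0.974% of all windows. In Ctsa it begins at -13 and at 5 from the annotated start, in Ctsd at -99, and the window at the first start of Ctsa holds neither it nor CACGTG. The PU.1 core GAGGAAGT was found in Ctsc and Ctss (3.20% of all windows). The AP-1 motif TGANTCA (7.81% of all windows) was found in none of the windows of these genes. A match is a run of letters, and whether a factor binds there was not measured.

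Reads on genes numbered 16225362 to 17280267 per library, except that the deposited table of TAM-KO replicate 1 lacks a block of 5311 genes. That table gives Ctsa and Ctsz only. Ctsd and Ctsk of this mouse were taken from the authors' table of the whole series, which holds genes selected for differing between the groups, and they enter FPKM values (fragments relative to transcript length and to the mapped reads of the library) but not the fit. The other 6 genes have 3 TAM-KO libraries. Related genes named below were filled for this mouse in the same way, among them Lyz2, Csf3r, Mmp8, Cd3g, Gzmb, Gzmc, Ctsw, Mitf, Cd74 and Acp5. Their fits held 7 libraries, so their TAM-KO means and overlaps include a value that the fit does not. Ptprc, which encodes CD45, was present at 39.1 to 88.7 FPKM in the 8 libraries, and Adgre1, which encodes F4/80, at 182 to 239 FPKM in 7. Colec11 was at 0 to 4 counts in every library of both groups, too low to check the genotype. Melanoma transcripts were present in every library: 7 of them summed to 1958 to 4411 FPKM in TAM-WT and 3820 to 5098 FPKM in TAM-KO replicates 2 to 4.

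The comparison of TAM-KO with TAM-WT asks how the loss of Colec11 changed these transcripts in TAMs. Ctsk, Ctsd and Ctsa were lower in TAM-KO by edgeR's quasi-likelihood test at an adjusted p of at most 0.05, the other 7 genes did not pass, and 0 were higher. At an unadjusted p under 0.05 there were 5, all lower, where 30.7% of all tested genes passed in either direction and 15.7% as lower, and neither DESeq2 nor limma called 1 of the 10 as higher. Of all 12412 genes tested, 9.92% passed in either direction, 5.29% as lower and 4.63% as higher in TAM-KO, against 3, 3 and 0 of these 10. Ctsk alone among the 10 also reached a 2-fold change, which 2.54% of tested genes did in either direction and 1.13% as lower. The fitted change was negative for 6 of the 10 genes (49.7% of all tested genes), with a median log2 fold change of -0.39 against 0.00 over all tested genes. In a bulk sample, fewer cells of a type and less RNA per cell cannot be told apart.

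**Figure D1:**
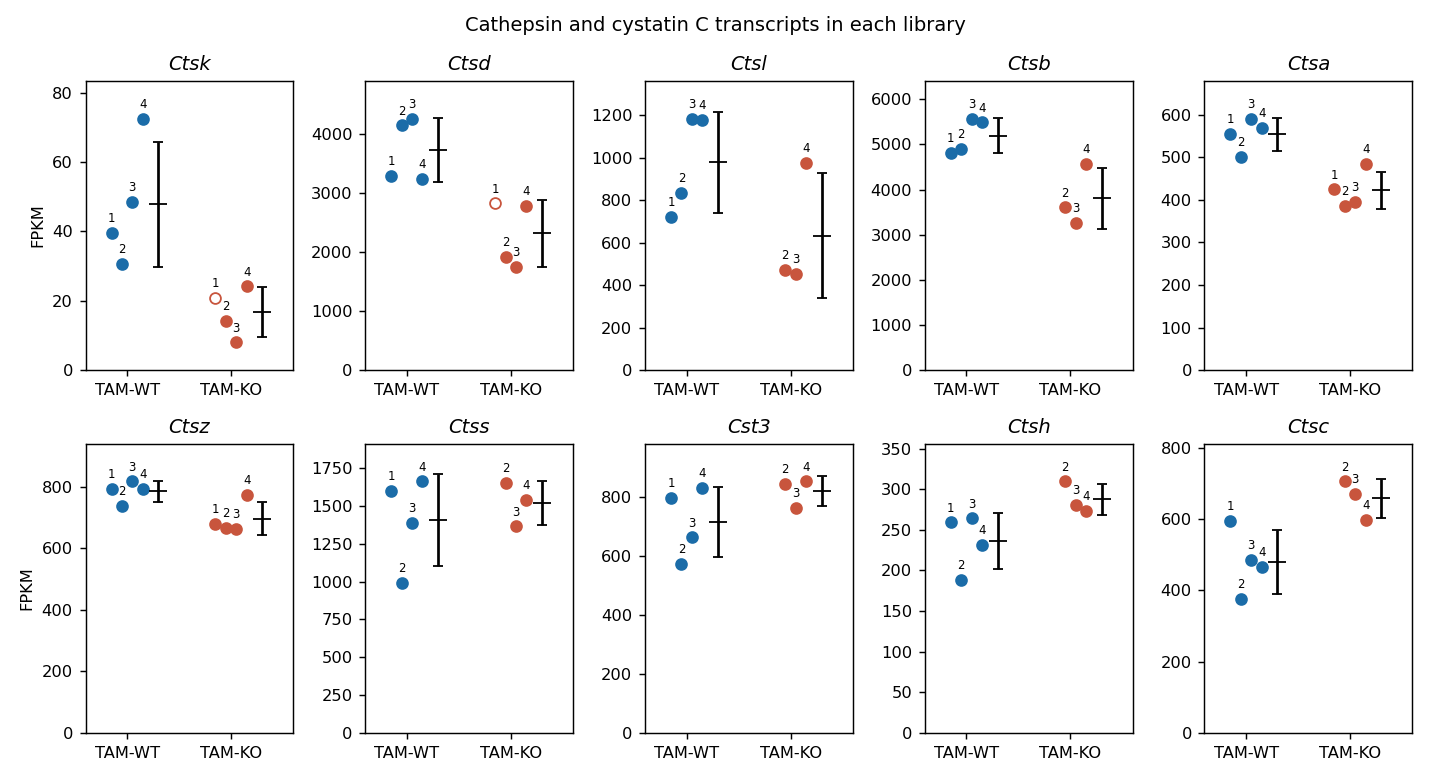
FPKM of each gene by library, with TAM-WT in blue and TAM-KO in red, the replicate number above each point, and a bar for the mean with its SD. Open points are values of TAM-KO replicate 1 from the table of the whole series. The 4 TAM-KO points of Ctsk, Ctsd and Ctsa lie below all 4 TAM-WT points, whereas those of Ctss fall among them.

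The genes spanned a wide range of levels. By mean FPKM in TAM-WT they ran from Ctsb at 5195 ± 389 (SD, n = 4) through Ctsd, Ctss, Ctsl, Ctsz, Cst3, Ctsa, Ctsc and Ctsh down to Ctsk at 47.8 ± 18.0 (SD, n = 4). The TAM-WT libraries of Ctsb did not overlap those of Ctsd, and Ctsh and Ctsk each stood clear of their neighbours. Ctss overlapped Ctsl, Ctsl overlapped Ctsz, Ctsz overlapped Cst3, Cst3 overlapped Ctsa, and Ctsa overlapped Ctsc, so the order within these pairs is within the spread. Summed over the 9 cathepsins, TAM-WT replicates 1 to 4 had 12680, 12720, 14610 and 13700 FPKM, against 9741, 8841 and 12010 FPKM for TAM-KO replicates 2 to 4. These sums correspond to 2.12% to 2.44% of the reads on genes in TAM-WT and 1.48% to 2.00% in TAM-KO. The groups did not overlap in this sum, and Ctsb and Ctsd made up the largest share of it. Each of these genes also had FPKM without overlap by itself, so the sum does not speak for the cathepsins as a family. No background share was counted for such sums.

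Ctsk, the collagenase of osteoclasts (chr3:95499210-95509387 on GRCm38.p6, plus strand), was the least abundant of the 10 and had the largest fitted change. Its FPKM was 39.6, 30.7, 48.5 and 72.5 in the 4 TAM-WT replicates, against 21.0, 14.2, 8.03 and 24.2 in TAM-KO replicates 1 to 4. Every TAM-KO library lay below every TAM-WT library, with TAM-WT replicate 4 the highest and TAM-KO replicate 3 the lowest. The fitted log2 fold change was -1.70 ± 0.42 (SE), or 0.309-fold with a 95% interval of 0.159 to 0.601, and the adjusted p was 0.0438 (edgeR's quasi-likelihood test on 4 and 3 libraries). The fit of Ctsk held 7 libraries, and the call held in 2 of the 7 fits that left out 1 of them, those without TAM-WT replicate 2 and without TAM-KO replicate 4, where the log2 fold change was -1.87 and -2.20. In the other 5 the adjusted p was from 0.0518 to 0.154 and the fitted change stayed between -1.39 and -1.79. Leaving TAM-KO replicate 1 out of the other genes left the fit of Ctsk as it was and moved its adjusted p to 0.0545.

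Ctsd, the aspartic protease that carries out much of the bulk protein digestion in lysosomes (chr7:142375910-142387827, minus strand), was the second most abundant. Its FPKM was 3302, 4153, 4265 and 3240 in the 4 TAM-WT replicates, against 2829, 1923, 1746 and 2785 in TAM-KO replicates 1 to 4. All 4 TAM-KO libraries lay below all TAM-WT libraries, though TAM-KO replicates 1 and 4 came close to TAM-WT replicates 1 and 4. The log2 fold change was -0.90 ± 0.21 (SE), or 0.537-fold with a 95% interval of 0.383 to 0.753, and the adjusted p was 0.0402 (edgeR's quasi-likelihood test on 4 and 3 libraries). Of the 7 fits that left out 1 of its libraries, 3 kept the call. Leaving out TAM-WT replicates 3 or 4 raised the adjusted p to 0.104 and 0.0684, and leaving out TAM-KO replicates 2 or 3 raised it to 0.152 and 0.133. Leaving TAM-KO replicate 1 out of the other genes moved the adjusted p alone, to 0.0499.

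Ctsa, the carboxypeptidase that protects lysosomal neuraminidase and beta-galactosidase (chr2:164832872-164841032, plus strand), differed by less but with little spread. Its FPKM was 555, 501, 591 and 569 in the 4 TAM-WT replicates, against 425, 385, 395 and 484 in TAM-KO replicates 1 to 4, all read from the libraries' own tables. The groups did not overlap, and the nearest pair was TAM-WT replicate 2 and TAM-KO replicate 4. The log2 fold change was -0.50 ± 0.12 (SE), or 0.708-fold with a 95% interval of 0.591 to 0.848, and the adjusted p was 0.0328 (edgeR's quasi-likelihood test on 8 libraries). With each library left out in turn, 3 of 8 fits kept the call, those that lacked TAM-WT replicate 1, TAM-WT replicate 2 or TAM-KO replicate 4, and in the others the adjusted p was from 0.0650 to 0.113. On GRCm38.p6 Ctsa shares 725 bases with Neurl2 and 1515 bases with Pltp, and no source used here says that reads were counted by strand. Neither neighbour passed the test, with log2 fold changes of -0.32 for Neurl2 and 0.33 for Pltp. Neu1 and Glb1, the neuraminidase and beta-galactosidase that Ctsa protects, had log2 fold changes of -0.24 and -0.31, and neither passed.

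**Figure D2:**
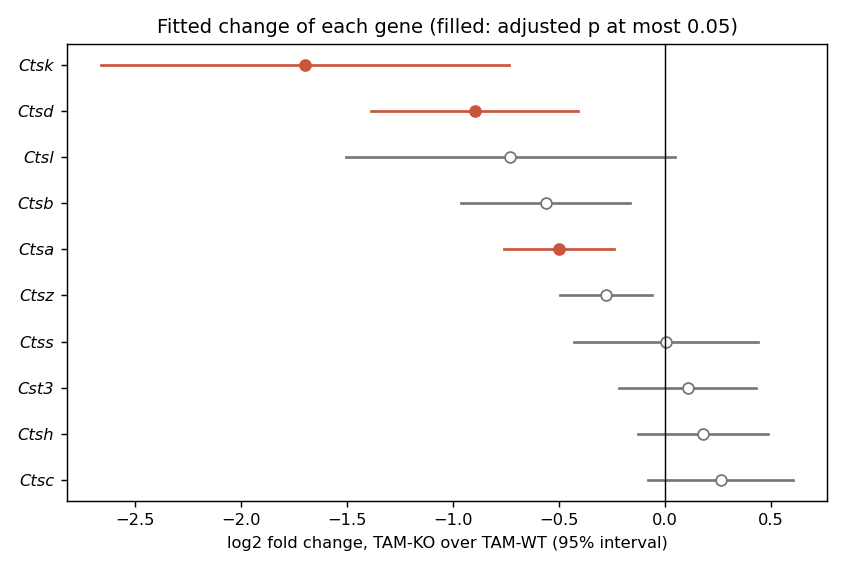
Fitted log2 fold change of TAM-KO over TAM-WT for the 10 genes, as points with 95% intervals; filled red points passed the adjusted p of 0.05. The intervals of Ctsk, Ctsd, Ctsb, Ctsa and Ctsz lie below 0, and only Ctsk, Ctsd and Ctsa passed after adjustment.

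Ctsb, a protease that cuts both within and at the end of peptides, and Ctsl, a potent endopeptidase, had negative fitted changes that did not pass. Ctsb was at 4816, 4906, 5570 and 5488 FPKM in the 4 TAM-WT replicates, against 3607, 3259 and 4562 FPKM in TAM-KO replicates 2 to 4. The groups of Ctsb did not overlap, yet the log2 fold change of -0.56 ± 0.17 (SE) had an adjusted p of 0.0730 by edgeR's quasi-likelihood test. Its last 774 bases overlap Fdft1, a gene at 18.3 FPKM in TAM-WT and 20.8 FPKM in TAM-KO. Ctsl was at 720, 832, 1183 and 1178 FPKM in the 4 TAM-WT replicates, against 474, 454 and 974 FPKM in TAM-KO replicates 2 to 4. TAM-KO replicate 4 fell among the TAM-WT libraries while TAM-KO replicates 2 and 3 lay below all of them. The log2 fold change of Ctsl was -0.73 with a 95% interval of -1.51 to 0.05, and the adjusted p was 0.187. Without TAM-KO replicate 4 it was -1.22 with an adjusted p of 0.0392 by the same test.

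Ctsz, a carboxypeptidase also called cathepsin X, varied least among TAM-WT libraries, from 737 to 817 FPKM. In TAM-KO replicates 1 to 4 it was at 679, 667, 663 and 775 FPKM. The first 3 lay below every TAM-WT library and replicate 4 lay among them. The log2 fold change was -0.28 ± 0.10 (SE), and the adjusted p was 0.0870 by edgeR's quasi-likelihood test. Ctsb and Ctsz passed in the fits without TAM-WT replicate 2 and without TAM-KO replicate 4, and in no other fit that left out 1 library.

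Ctsc, the dipeptidyl peptidase that activates granule serine proteases, and Ctsh, an aminopeptidase, had higher FPKM in TAM-KO without passing the test. Ctsc was at 595, 377, 486 and 465 FPKM in the 4 TAM-WT replicates, against 706, 671 and 596 FPKM in TAM-KO replicates 2 to 4. Ctsh was at 259, 189, 264 and 232 FPKM in TAM-WT and at 310, 280 and 274 FPKM in those TAM-KO libraries. Neither gene overlapped between groups, although for Ctsc TAM-WT replicate 1 lay within 2 FPKM of TAM-KO replicate 4. The fitted log2 fold changes were 0.26 and 0.18, with adjusted p of 0.271 and 0.401 by edgeR's quasi-likelihood test. Of all tested genes, 13.8% had higher FPKM in every TAM-KO library than in every TAM-WT library and 5.65% had lower (19.4% together), against 2 and 4 of these 10. That count included TAM-KO replicate 1 for 9396 of the tested genes and lacked it for 3016, and lacked it for 8 of these 10. Groups with fewer libraries separate more easily, so the shares are not a matched background for these genes. FPKM ran higher in TAM-KO across genes: on log2(FPKM + 0.1) the median change of all tested genes was 0.11, against 0.00 in the fit of counts.

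Ctss, the cathepsin that completes invariant chain removal, did not separate the groups. It was at 1598, 990, 1388 and 1662 FPKM in the 4 TAM-WT replicates, against 1655, 1365 and 1541 FPKM in TAM-KO replicates 2 to 4. TAM-WT replicate 2 was the lowest and the other 6 overlapped. The log2 fold change was 0.00 with a 95% interval of -0.43 to 0.44, or 0.743-fold to 1.35-fold. Ctsk and Ctss lie on the same strand of chromosome 3 with 17398 bases between them. The FPKM of Ctss divided by that of Ctsk was from 22.9 to 40.4 in TAM-WT. In TAM-KO replicates 2 to 4 this ratio was 116, 170 and 63.8. It did not overlap between groups, but neither did the FPKM of Ctsk alone, and the ratio carries no test.

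Cst3, the inhibitor, was at 796, 574, 663 and 831 FPKM in the 4 TAM-WT replicates, against 846, 763 and 853 FPKM in TAM-KO replicates 2 to 4. The groups overlapped, and the log2 fold change was 0.11 ± 0.14 (SE) with an adjusted p of 0.648 by edgeR's quasi-likelihood test. The summed FPKM of the 7 cysteine cathepsins divided by that of Cst3 was 11.1, 14.0, 14.7 and 11.9 in TAM-WT and 8.79, 8.78 and 10.3 in TAM-KO replicates 2 to 4. This ratio of transcripts was lower in every TAM-KO library, and it carries no test and says nothing of enzyme activity. The sum itself overlapped between groups, at 8062 to 9890 FPKM in TAM-WT and 6700 to 8745 FPKM in TAM-KO replicates 2 to 4. Its largest part was Ctsb, and no background share was counted for such ratios.

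**Figure D3:**
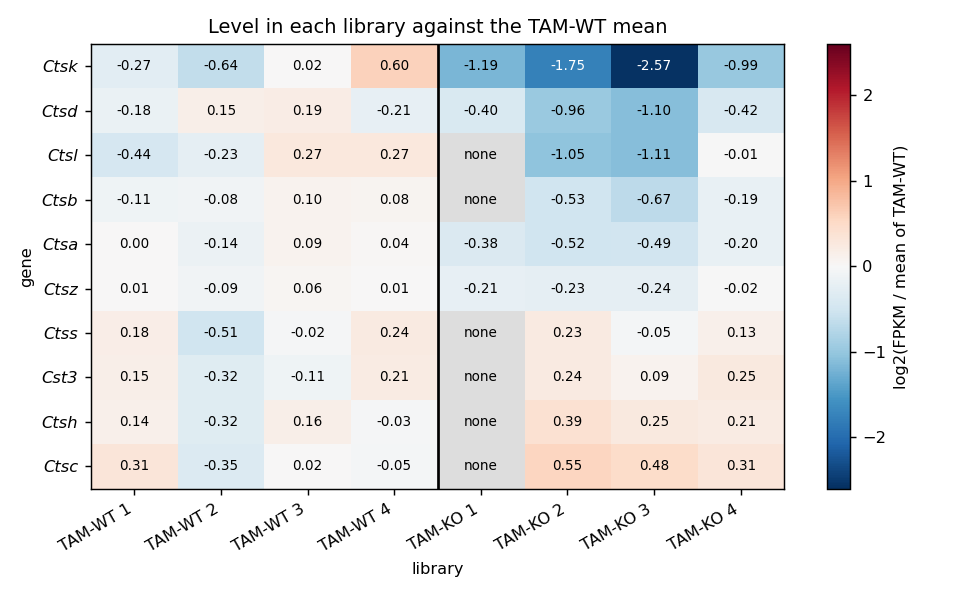
The log2 of each library's FPKM over the TAM-WT mean of that gene, with genes in rows, libraries in columns, blue for lower and red for higher; grey cells have no value. Ctsk in TAM-KO replicate 3 is the lowest cell at -2.57, and TAM-KO replicates 2 and 3 are lower than replicate 4 for Ctsk, Ctsd, Ctsl, Ctsb, Ctsa and Ctsz.

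The TAM-KO libraries were not alike. Replicate 3 was the lowest TAM-KO library for 7 of the 10 genes, and replicate 4 was the highest for 6. TAM-KO replicate 1 had a value for Ctsa, Ctsd, Ctsk and Ctsz only, so the other 6 genes were ranked without it. Among TAM-WT libraries, replicate 2 was the lowest for 7 genes, among them Ctss, Cst3, Ctsc and Ctsh, and replicate 3 was the highest for 6. How often each library took these places over all tested genes was not counted. When the log2 CPM profiles (counts scaled to library size) over the 7 libraries with every gene were centred, Ctsa lay nearest to Ctsb with a root mean square difference of 0.09 log2 units. Ctss and Cst3 lay nearest to each other at 0.10, and Ctsc and Ctsh at 0.13. Ctsk stood apart from the other 9, its nearest being Ctsl at 0.53. The profiles were centred but not scaled, so a gene that varies more lies farther from genes that vary little. Among 10372 genes with a mean CPM of at least 5, the nearest to Ctsk were Sel1l3 at 0.30, Dhrs9 at 0.31 and Per2 at 0.33. Their log2 fold changes were -1.05, -1.30 and -1.86, values that the choice by likeness to Ctsk had fixed as low. Per2 is a component of the circadian clock.

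Other genes that differed between the libraries stood beside these results. The 10 macrophage markers summed to 13110 to 15450 FPKM in TAM-WT and 10220 to 12900 FPKM in TAM-KO replicates 2 to 4, without overlap, and 0 of the 10 passed edgeR's quasi-likelihood test (4 at an unadjusted p under 0.05, while DESeq2 called Lyz2, Cd68 and Mertk as lower and Fcgr1 as higher). Lyz2, the lysozyme of macrophages, was at 7637 ± 1006 and 5405 ± 1174 FPKM (SD, n = 4 each), and Cd68, a lysosomal membrane protein, at 2075 ± 204 and 1518 ± 296 FPKM (SD, n = 4 and 3). Lyz2 made up the largest share of the macrophage sum. By itself it was at 4721, 4119 and 6201 FPKM in TAM-KO replicates 2 to 4, below the 6521 to 8944 FPKM of TAM-WT. The sum therefore does not speak for the list as a whole, and no background share was counted for such sums. The fitted change was positive for 4 of the 10, C1qa, C1qb, Ptprc and Fcgr1, among them the complement gene C1qa at 1795 and 2100 FPKM. Relative to the mean log2 FPKM of these 10 genes, a description added after seeing the data, the TAM-KO mean was below the TAM-WT mean by 0.37 for Ctsa, 0.79 for Ctsd and 1.67 for Ctsk on the log2 scale, and in each the groups did not overlap. On that scale, which lacks TAM-KO replicate 1, Ctsc, Ctsh and Cst3 were higher in TAM-KO by 0.50, 0.33 and 0.24 without overlap, and Ctsb, Ctsl, Ctss and Ctsz overlapped. The share of all genes without overlap on that scale was not counted, so these separations have no background. Cst3 overlapped in FPKM itself, and its fitted log2 fold change was 0.11. Of the 7 melanoma markers, all with a positive fitted change, 1 passed (6 at an unadjusted p under 0.05, and 5 by DESeq2). Sox10, a factor of pigment cells, rose from 51.6 ± 17.3 to 92.9 ± 4.25 FPKM (SD, n = 4 each). Pmel and Dct, the most abundant of that list, were at 795 and 744 FPKM in TAM-WT and 1272 and 1124 FPKM in TAM-KO. T and NK cell markers summed to 2.06 to 21.5 FPKM in TAM-WT and 24.3 to 68.7 FPKM in TAM-KO replicates 2 to 4. Of 7 tested 1 rose (6 at an unadjusted p under 0.05, 2 by DESeq2 and 5 by limma on log2(FPKM + 1)). That was Nkg7, at 5.82, 0.10, 0.21 and 0.21 FPKM in TAM-WT and 14.7, 27.7, 17.8 and 9.94 FPKM in TAM-KO. TAM-WT replicate 1 stood above the other TAM-WT libraries, as it did for Cd3g (means of 1.28 and 10.3 FPKM), and without it the log2 fold change of Nkg7 went from 3.38 to 6.41. Of the neutrophil list 1 of 4 tested rose (4 passed at an unadjusted p under 0.05 and 4 by DESeq2, in both with Mmp8 as lower). That was S100a8, at 4.03 ± 1.21 FPKM in TAM-WT (SD, n = 4) and at 73.5, 10.6, 9.13 and 15.8 FPKM in TAM-KO replicates 1 to 4, and without TAM-KO replicate 1 its log2 fold change went from 2.68 to 1.52. It stood beside Csf3r at 18.8 and 30.5 FPKM and Mmp8 at 30.4 and 15.1 FPKM. Of the dendritic cell list 1 of 8 rose, Xcr1, from 0.18 to 0.66 FPKM. At an unadjusted p under 0.05 there were 2, and 2 by DESeq2, in both Xcr1 as higher and Cd209a as lower. Ccr7 was at 5.87 and 4.91 FPKM and Cd209a at 4.52 and 2.40 FPKM. The B cell, fibroblast and endothelial cell lists summed to at most 10.9, 7.16 and 11.3 FPKM in any of the 7 libraries with every gene, and 0 of 2, 0 of 5 and 0 of 4 tested genes passed (1 in each at an unadjusted p under 0.05, and by DESeq2 0, 0 and 1). Their most abundant genes were Cd79b and Cd79a, Col1a1 and Col1a2, and Pecam1 and Kdr. With each library left out in turn, the calls on Sox10, Nkg7 and Xcr1 held in 3 of 8 fits and that on S100a8 in 1. The part of these shifts in the cathepsin values was not tested.

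The cathepsins outside the 10 were scarce. Of 14 searched, 4 could be tested and 0 passed by edgeR's quasi-likelihood test (2 at an unadjusted p under 0.05, and 1 by DESeq2, Ctsf). Ctso was at 10.01 FPKM in TAM-WT and 10.3 FPKM in TAM-KO, and Ctsf fell short of the threshold at 2.79 and 1.94 FPKM (adjusted p = 0.0505). Ctsw, the cathepsin of cytotoxic lymphocytes, named after its values were seen, was at 0.235 and 2.11 FPKM without overlap between groups (adjusted p = 0.0570). Of the other cysteine protease inhibitors 5 of 24 could be tested and 1 passed (3 at an unadjusted p under 0.05, and 2 by DESeq2, Cst6 and Cstb). That was Cst6, cystatin E/M, which rose from 1.12 ± 0.40 to 2.34 ± 0.31 FPKM (SD, n = 4 each). Its call held in 4 of 8 fits with 1 library fewer. Cstb, the cytosolic inhibitor stefin B and the most abundant of that list, was at 928 ± 116 FPKM in TAM-WT (SD, n = 4) and 717 ± 85.4 FPKM in TAM-KO (SD, n = 3) and did not pass. Ctla2b, an inhibitor related to cathepsin propeptides, was at 18.5 and 22.7 FPKM.

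Partners of the cathepsins were examined by list. Of 11 genes of cathepsin maturation and sorting 0 passed edgeR's quasi-likelihood test (5 at an unadjusted p under 0.05, and 2 by DESeq2, Lgmn and Nagpa), with a median log2 fold change of -0.22. Psap, the saposin precursor, had a log2 fold change of -0.26, and Lgmn, the legumain that cleaves cathepsin precursors, went from 1731 to 1429 FPKM with an adjusted p of 0.0691 by edgeR's quasi-likelihood test. Of 7 transcription factors of lysosomal genes 0 passed that test (2 at an unadjusted p under 0.05, and 1 by DESeq2, Mitf). Tfeb and Tfe3, members of the family that can bind the E-box core, had log2 fold changes of -0.13 and -0.10. Their relative Mitf, also the lineage factor of pigment cells, went from 55.3 to 86.2 FPKM without overlap (adjusted p = 0.0613). The melanoma marker sums were 2647, 4411, 2009 and 1958 FPKM in TAM-WT and 5098, 4771 and 3820 FPKM in TAM-KO replicates 2 to 4, overlapping through TAM-WT replicate 2, and the part of melanoma RNA in the level of Mitf was not tested. Bhlhe40, the most abundant of the list, was at 141 and 120 FPKM. Of 8 partners of class II processing 0 passed edgeR's quasi-likelihood test, at an unadjusted p under 0.05 too, and DESeq2 also called 0. Cd74, the invariant chain cut by Ctss, was at 1318 ± 619 FPKM in TAM-WT and 2083 ± 264 FPKM in TAM-KO (SD, n = 4 each), and Ifi30, a lysosomal thiol reductase, at 419 and 403 FPKM. In Cd74, as in Ctss, TAM-WT replicate 2 was the lowest library, at 641 FPKM. Gzmb and Gzmc, granzymes that Ctsc activates, were the substrates that could be tested, and 0 of the 2 passed (1 at an unadjusted p under 0.05, and 0 by DESeq2). Gzmb was at 1.88 and 14.5 FPKM, and Gzmc at 0.75 and 1.53 FPKM, beside the T and NK cell sums given above.

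Of 12 tested genes that, like Ctsk, are known from osteoclasts, 2 fell and 1 rose (4 at an unadjusted p under 0.05, and 4 by DESeq2). Atp6v0d2, a subunit of the proton pump that acidifies lysosomes and the osteoclast surface, was at 70.8, 77.2, 103 and 88.7 FPKM in the 4 TAM-WT replicates, against 34.2, 16.3, 15.2 and 38.1 FPKM in TAM-KO replicates 1 to 4. All TAM-KO libraries lay below all TAM-WT libraries, with replicates 2 and 3 lowest as for Ctsk, and the log2 fold change was -1.81 ± 0.31 (SE; adjusted p = 0.0178). Acp5, the tartrate-resistant acid phosphatase that marks osteoclasts, went the other way, from 18.7, 18.9, 25.3 and 24.6 FPKM to 40.6, 56.3, 40.3 and 38.9 FPKM. The groups of Acp5 did not overlap, and its log2 fold change was 0.93 ± 0.18 (SE; adjusted p = 0.0269). Ostm1, a partner of a lysosomal chloride channel, fell by 0.26 on the log2 scale (adjusted p = 0.0411). These adjusted p-values are from edgeR's quasi-likelihood test, and leaving out 1 of a gene's libraries kept the call in 5 of 8 fits for Atp6v0d2, 5 of 7 for Acp5 and 1 of 7 for Ostm1. Under 9 other processing choices Ostm1 passed in 5, with an adjusted p of up to 0.173, Acp5 in 8 and Atp6v0d2 in 9. Tcirg1, the most abundant of the list, was at 125 FPKM in TAM-WT and 123 in TAM-KO, and Nfatc1, the transcription factor that drives osteoclast formation, at 15.4 and 16.8 FPKM.

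**Figure D4:**
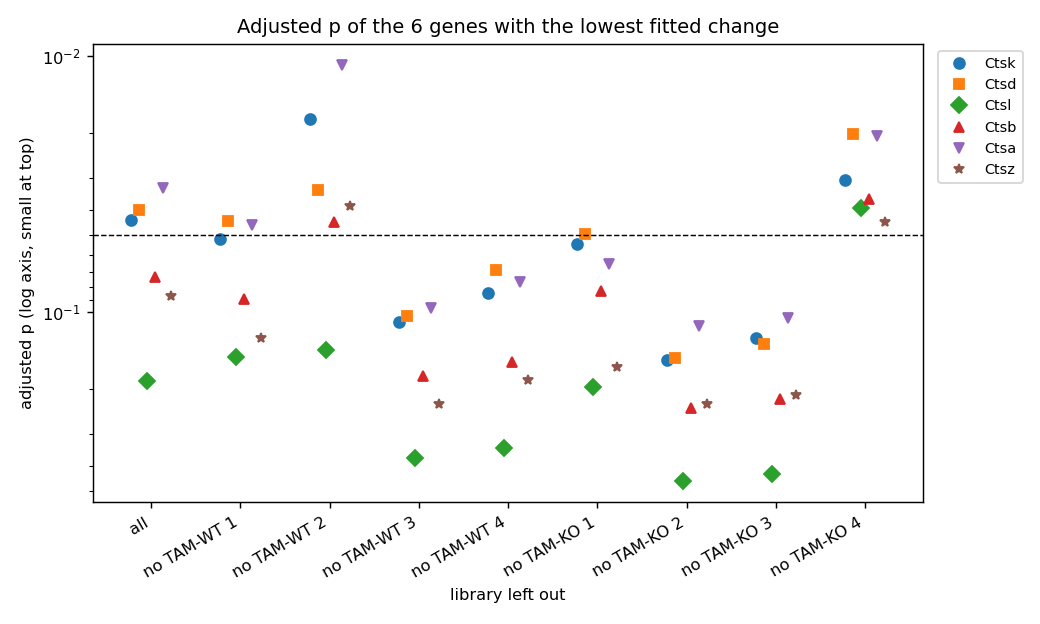
The adjusted p of edgeR's quasi-likelihood test on a log axis with small values at the top, for the 6 genes with negative fitted change, with all libraries and with each library left out in turn; the dashed line is 0.05. TAM-KO replicate 1 enters the fits of Ctsa and Ctsz only. Without TAM-KO replicate 4 all 6 genes pass, and without TAM-WT replicates 3 or 4, or without TAM-KO replicates 2 or 3, none does.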

How the data were processed

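RNA from sorted TAMs of 4 WT and 4 Colec11-/- mice was sequenced on BGISEQ-500. The submitters' processing notes name HISAT2 2.0.4, Bowtie2 2.2.5, RSEM 1.2.12 and GRCm38.p6. The authors deposited RSEM expected counts per gene without normalization, FPKM values relative to transcript length and mapped reads, and TPM values, which enter no result. The authors' comparison columns (log2 ratios, p, q and group averages) were not used. The deposited strand of Ctsl differs from that of GENCODE M21 and RefSeq, so strands are those of the annotation.

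Groups and replicate numbers are those of the labels. In the table of TAM-KO replicate 1, 5311 genes are missing, 1 line holds parts of 2 genes, and 629 values belong to other genes; these were not used. Counts were rounded and fitted in R 4.3.3 with edgeR 4.0.16 (filterByExpr, TMM, glmQLFit, glmQLFTest), on 8 libraries for 9396 genes and on 7 for 3016, with Benjamini-Hochberg adjustment over all 12412. Alternatives were DESeq2 1.42.0, its size factors, total reads, limma 3.58.1 on log2(FPKM + 1) and log2(FPKM + 0.1), other filters, TAM-KO replicate 1 filled from the series table, a replicate block, and each library left out. P-values measure the spread between mice, 1 library each.

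The 10 genes and the related lists were chosen with earlier results of these data known. From the related lists, genes that passed and the 2 most abundant were to be named, from cell type lists the 2 most abundant, and the 3 genes nearest to Ctsk. Neu1, Glb1, Tfeb, Tfe3, Nfatc1, Ctsw, Nagpa, Mertk, Fcgr1, C1qa, C1qb and the genes overlapping Ctsa and Ctsb were named after their values were seen. The promoter table holds no window for Ctsb or Ctsh.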

Additional observations from a re-analysis of the deposited data

Results flagged for a closer look

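Ctsz in TAM-KO replicate 4 stood apart from the other 3 TAM-KO libraries at 775 FPKM, with a gap to the nearest of them that was 0.859 of the whole range of the group. Of 14 groups of 4 libraries examined for a library this far out, 1 was picked out, and chance gives about 0.7. The same library was the highest for 6 of the 10 genes among the TAM-KO libraries with a value.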

How the results depend on the processing

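Of the 10 genes, 3 passed in the reported fit, and in no setting did 1 of them pass as higher. DESeq2's Wald test called 5 (Ctsb and Ctsz besides Ctsa, Ctsd and Ctsk), with 2253 genes called in all against 1231. The other scalings and filters, limma on FPKM, and the fit with TAM-KO replicate 1 filled in called the same 3, Ctsa, Ctsd and Ctsk; limma on log2(FPKM + 1) gave 200 genes with at least a 2-fold change and an adjusted p of at most 0.05, against 315. With a replicate block 2 were called, Ctsa and Ctsk, and Ctsd had a log2 fold change of -0.998 with an adjusted p of 0.0660. Same-numbered libraries did not deviate together (correlations of -0.37, 0.11, -0.21 and 0.24), so the numbers were not taken as pairs. When 1 library was left out, from 0 to 6 of the 10 genes passed, from 77 to 2755 genes passed in all, and from 28 to 523 also changed at least 2-fold. The count was 0 without TAM-WT replicates 3 or 4 and without TAM-KO replicates 2 or 3, 1 without TAM-KO replicate 1 (Ctsd), 2 without TAM-WT replicate 1 (Ctsa and Ctsd), 5 without TAM-WT replicate 2 and 6 without TAM-KO replicate 4. TAM-KO replicate 1 is in the fits of Ctsa and Ctsz only, so without it the adjusted p of the other 8 moved through other genes. The cause of the other changes was not tested. The fitted changes of the 6 genes with negative values kept their sign in all these fits.

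The calls on Ctsk, Ctsd and Ctsa are near the threshold. The fits of 8 genes rest on 3 TAM-KO mice, those of Ctsa and Ctsz on 4, and genes that share bases with Ctsa, Ctsb, Ctss or Ctsz were counted with no strand setting stated. Transcript levels do not measure protease protein or activity.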
